A study of Homo sapiens with 27 samples.

Results

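The genes described here carry out the first steps by which cells break down the branched-chain amino acids leucine, isoleucine and valine. They are BCAT1, BCAT2, BCKDHA, BCKDHB, DBT, BCKDK, IVD, MCCC1 and MCCC2, 9 of the 21487 gene identifiers in the count table, and they were chosen by name together with an earlier observation that BCAT1 differed strongly in one knockout clone. Of these, 8 had enough reads to be tested, beside 13943 tested genes in all.

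The cells were Panc1, an established human pancreatic ductal adenocarcinoma line, as parental cells and as ARNT knockout Clone A and Clone B, each derived with CRISPR-Cas9 and each a single clone. ARNT is the shared partner of the hypoxia-inducible factors. Each genotype was kept for 48 h in normoxia (20% O2) in regular DMEM with serum and antibiotics, in hypoxia (1% O2) in that medium, or in hypoxia in TIFM, a medium modelled on pancreatic tumour interstitial fluid, with 3 libraries in each of the 9 groups. TIFM was used only under hypoxia, so its effect is TIFM against regular medium within hypoxia, and oxygen is compared within regular medium. No label says that the 3 libraries of a group came from separate cultures, so the p-values measure only the spread between libraries, which may be technical.

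Branched-chain amino acids first lose their amino group to 2-oxoglutarate, giving glutamate and a branched-chain keto acid. BCAT1 does this in the cytosol and BCAT2 in mitochondria. The keto acids are then committed to oxidation by the mitochondrial branched-chain keto acid dehydrogenase, whose E1 subunits are encoded by BCKDHA and BCKDHB and whose E2 core is DBT. The kinase BCKDK switches this complex off by phosphorylation, and the phosphatase PPM1K switches it on. IVD and the biotin-dependent carboxylase made of MCCC1 and MCCC2 act next on the leucine branch.

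Read totals ran from 26057022 to 38341713 per library (median 31727174). The common biological coefficient of variation was 14.1%. Within a group, the chi-square per gene between 2 libraries was 9.58 to 205 in TIFM, 5.09 to 41.2 in hypoxia and 4.42 to 44.2 in normoxia, and it was 58.4 or more for all 3 pairs of clone A in TIFM. In parental TIFM, the pairs with replicate 2 gave 64.8 and 69.9, against 9.58 for replicates 1 and 3. In clone A hypoxia, the pairs with replicate 1 gave 41.2 and 39.5, against 5.09 for replicates 2 and 3. ARNT read counts did not set the clones apart by themselves, with 59.3 to 75.3 CPM (reads scaled to a common library total with TMM factors) in parental libraries, 52.0 to 77.4 CPM in clone A and 44.6 to 67.5 CPM in clone B. A count over the whole gene does not read the edit, so it does not check the labels. The keratin KRT8 was at 257 CPM or more and vimentin (VIM) at 1855 CPM or more in all 27 libraries. Of the other epithelial markers, KRT18 was at 354 CPM or more and KRT19 at 71.9 CPM or more. EPCAM read 16.7 to 40.9 CPM, KRT7 2.02 to 12.4 CPM and CDH1 1.13 to 61.5 CPM (median 2.13 CPM). INS was at 0 in all of them, and the acinar marker PRSS1 did not exceed 0.0416 CPM. Of the leukocyte markers, CD3E and PTPRC stayed under 1 CPM and CD68 read 76.6 to 296 CPM. The summed level of 4 fibroblast markers, mostly COL1A1, was 30.6 to 75.9 CPM in parental cells, 22.7 to 149 CPM in clone A and 141 to 891 CPM in clone B. The summed level of 6 epithelial markers, mostly KRT8, KRT18 and KRT19, was 2556 to 8728 CPM in parental cells. It was 785 to 3186 CPM in clone A and 868 to 8691 CPM in clone B. The part of these marker differences in the results below was not tested.

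Short stretches near the start sites of BCAT1, MCCC1 and MCCC2 are shown because BCAT1 is the member that differed most between genotypes and the other pair fell together in TIFM. They are from RefSeq (GRCh38.p14), 5′ to 3′ on the gene's strand, and the capitals mark the motif. Letters were searched on both strands in 300-base windows around 14 start sites of 8 members (BCAT2 had none in the table). The first was ACGTG, a form of the core of hypoxia response elements, and no other form of that core was searched. CACGTG is an E-box that contains ACGTG on both strands. TGATGNAA is the form of the element bound by ATF4 with C/EBP partners.
BCAT1 TGATGNAA, chr12:24949131-24949160, minus strand: tgtcttcctgcTGATGCAAtccgctaggtc
BCAT1 CACGTG, chr12:24949070-24949099, minus strand: aatccagcccgcCACGTGtactcgccgccg
MCCC1 CACGTG, chr3:183099646-183099675, minus strand: cacccccacgagCACGTGgccagactgccc
MCCC2 CACGTG, chr5:71587265-71587294, plus strand: ggcgcgcttaggCACGTGtgtggacaggcc
The remaining BCAT1 windows, an MCCC1 window and those of DBT and IVD held none of these motifs. BCKDHA, BCKDHB and BCKDK held ACGTG only. Across all 35116 windows of the table, 21.4% held ACGTG, 7.26% held CACGTG and 3.62% held TGATGNAA. Counting genes with a match in any window, the shares were 24.9%, 8.77% and 4.46%. The motifs are common letters and a match is a description only. Both BCAT1 motifs lie inside the 5′ UTR of 1 of the 10 annotated BCAT1 transcripts (BCAT1-201).

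BCAT1 (chromosome 12, positions 24810022 to 24949459, minus strand, GRCh38) was the member that differed most between genotypes. In normoxia the 3 parental libraries read 14.6, 12.1 and 11.5 CPM, clone A read 488, 495 and 512 CPM, and clone B read 214, 214 and 216 CPM. In hypoxia the parental libraries read 28.8, 22.6 and 26.1 CPM, clone A 461, 581 and 567 CPM, and clone B 218, 210.2 and 203 CPM. In TIFM the parental libraries read 81.6, 59.2 and 76.2 CPM, clone A 1110.3, 824 and 667 CPM, and clone B 531, 527 and 500.4 CPM. In each of the 3 conditions clone A lay above clone B and clone B above the parental cells, with no overlap between any of these groups.

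Because BCAT1 was chosen partly for its level in clone A, every BCAT1 difference that involves clone A is a description without a test. Clone A exceeded the parental cells by a log2 difference of 5.29 in normoxia, 4.38 in hypoxia and 3.58 in TIFM, and the normoxia value is a 39.1-fold level. Among the 13943 tested genes ordered from the most positive to the most negative log2 difference, BCAT1 stood 5th in normoxia, 14th in hypoxia and 19th in TIFM. Clone B, which was tested, exceeded the parental cells by 4.07 ± 0.16 (SE, adjusted p = 2.22e-16) in normoxia, 3.02 ± 0.15 (adjusted p = 2.03e-14) in hypoxia and 2.84 ± 0.15 (adjusted p = 5.24e-14) in TIFM. These clone B values share their parental libraries with the clone A differences, so the pair is not independent evidence. Clone B stood below clone A by 1.21, 1.35 and 0.74 log2 units, in the same order of conditions.

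**Figure D1:**
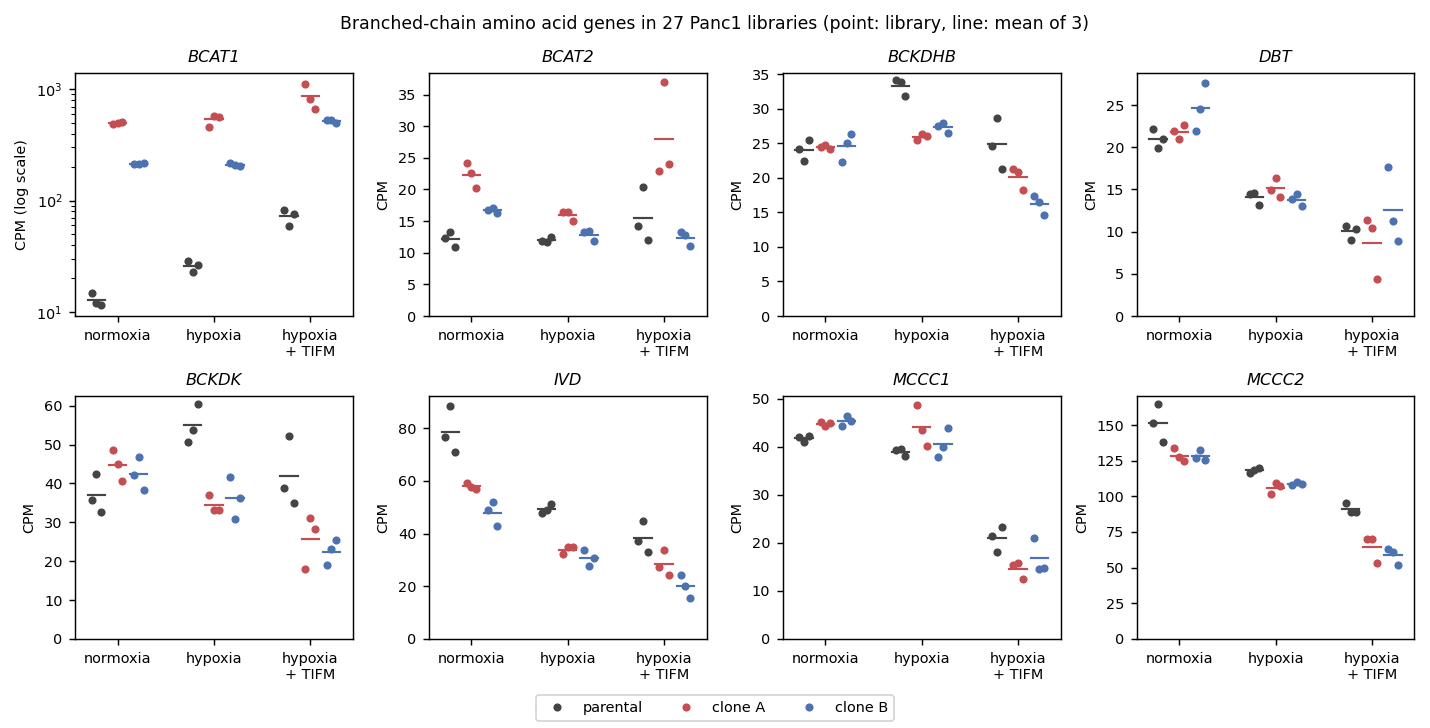
Level of 8 genes in each of 27 libraries, in CPM scaled with TMM factors, against condition; each point is 1 library, each line the mean of 3, and the colours are genotypes. BCAT1 is on a log axis because it spans 11.5 to 1110.3 CPM, and the other panels start at 0.

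The response of BCAT1 to hypoxia differed between clone B and parental cells. It rose in parental cells in hypoxia by 1.02 ± 0.15 log2 units (adjusted p = 9.58e-06), with no overlap between the 3 hypoxic and the 3 normoxic libraries. In clone B the difference was −0.03 ± 0.14 (adjusted p = 0.925) and the groups overlapped, and in clone A it was 0.11, without a test. The test of the difference itself gave −1.05 ± 0.20 for clone B minus parental (adjusted p = 0.00176), and it remained called when any 1 of the 12 libraries involved was left out. The corresponding clone A value, not tested, was −0.91. The parental libraries in these hypoxia tests also enter the clone A differences for which BCAT1 was chosen. These tests are therefore not independent of that choice. TIFM raised BCAT1 by 1.49 ± 0.14 in parental cells (adjusted p = 1.36e-08) and by 1.31 ± 0.14 in clone B (adjusted p = 3.15e-08), and in clone A the difference was 0.69. The TIFM response of clone B minus that of parental cells was −0.18 ± 0.20 (adjusted p = 0.610), which does not show that the responses are alike. The parental TIFM test and this difference also use parental libraries that enter the clone A differences. They are likewise not independent of the choice of BCAT1.

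The gene of the mitochondrial aminotransferase, BCAT2 (chromosome 19, positions 48795062 to 48811029, minus strand), varied less: over the 9 group means its log2 level had an SD of 0.405. Per kilobase of exon, the level of BCAT1 relative to BCAT2 was 0.406 ± 0.054 (SD, n = 3) in parental normoxia, 0.831 ± 0.098 in parental hypoxia and 1.93 ± 0.71 in parental TIFM libraries. In clone B the ratio was 4.98 ± 0.14, 6.32 ± 0.25 and 16.3 ± 1.08 in the same order, and in clone A it was 8.68 ± 0.99, 13 ± 1.93 and 12.7 ± 5.38. The ratio was below 1 in all 6 parental libraries in regular medium and above 1 in all 18 clone libraries and the 3 parental libraries in TIFM. Where it crosses 1 depends on the merged length of all annotated exons, 11775 bases for BCAT1 and 4553 for BCAT2. Which transcripts were expressed was not tested. In CPM without length, BCAT1 in parental hypoxia (28.8, 22.6 and 26.1 CPM) lay above BCAT2 (11.9, 11.7 and 12.5 CPM).

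**Figure D2:**
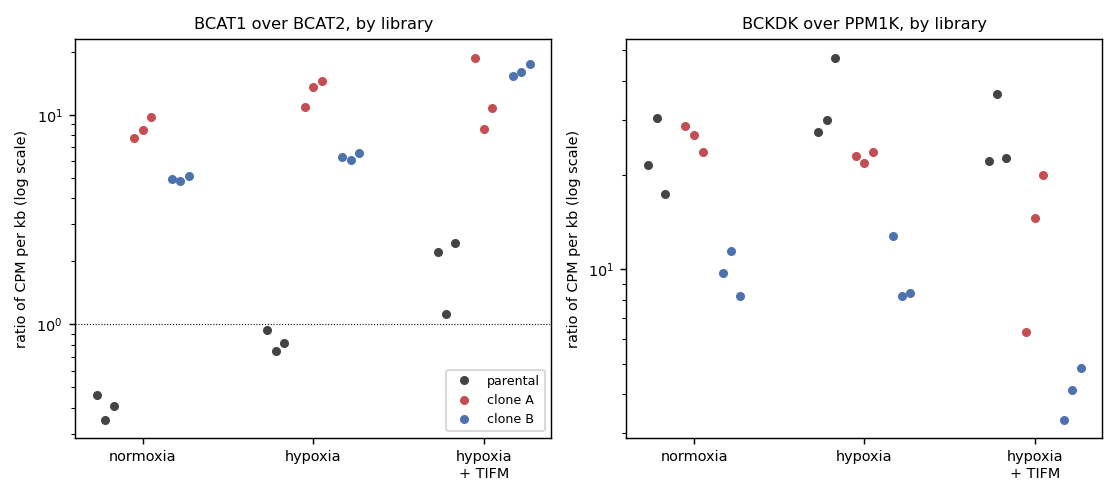
Per-kilobase ratio of BCAT1 to BCAT2 (left) and of BCKDK to PPM1K (right) in each library, on log axes, by condition and genotype. The dotted line is a ratio of 1, and parental cells in regular medium lie below it at left.

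In clone A under hypoxia, BCAT2 read 16.4, 16.5 and 15 CPM in regular medium and 22.8, 37.1 and 24 CPM in TIFM, where replicate 2 stood high and the groups did not overlap. In clone A, TIFM raised BCAT2 by 0.81 ± 0.16 (adjusted p = 0.000111). In parental cells the TIFM difference was 0.37 ± 0.16 (adjusted p = 0.0716), and the groups overlapped. Neither clone's TIFM response was called different from the parental one. The differences in response were 0.44 ± 0.23 for clone A (adjusted p = 0.140) and −0.43 ± 0.23 for clone B (adjusted p = 0.258). In clone B the TIFM difference was −0.05 ± 0.17 (adjusted p = 0.804), and its level in TIFM lay 1.17 log2 units under that of clone A (−1.17 ± 0.17, adjusted p = 2.68e-06). A pair of further BCAT2 calls was fragile. In clone A, hypoxia lowered BCAT2 (log2 difference −0.49 ± 0.16, adjusted p = 0.0337), which kept its call in 1 of 6 fits that each left out a library. In clone B it exceeded parental cells in normoxia by 0.45 ± 0.16 (adjusted p = 0.0431), also in 1 of 6 such fits.

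The dehydrogenase complex could be followed through BCKDHB and DBT but not through BCKDHA. BCKDHA (ENSG00000248098, chromosome 19, positions 41397460 to 41425005) was listed at 0 in all 27 libraries, and so was its neighbour EXOSC5. Of the BCKDHA exon length, 64.6% is shared with other annotated genes, among them AC011462.1, which received 1 to 16 reads per library. No fold or absence is read from these zeros, since the reason for them was not tested.

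BCKDHB, an E1 subunit gene (chromosome 6, positions 80106647 to 80346270), read 24.3, 22.5 and 25.5 CPM in parental normoxia and 34.2, 33.9 and 31.8 CPM in parental hypoxia. Those groups did not overlap, and the rise was 0.47 ± 0.11 (adjusted p = 0.00145). The clones gave 0.08 ± 0.11 (A, adjusted p = 0.612) and 0.15 ± 0.11 (B, adjusted p = 0.404). Neither response was called different from the parental one. The differences were −0.39 ± 0.15 for clone A (adjusted p = 0.133) and −0.32 ± 0.15 for clone B (adjusted p = 0.284). TIFM lowered BCKDHB in parental cells (log2 difference −0.42 ± 0.11, adjusted p = 0.00237) and in clone A (log2 difference −0.36 ± 0.11, adjusted p = 0.0043). The clone A call was lost with only the libraries compared in the fit. TIFM also lowered it in clone B (log2 difference −0.76 ± 0.11, adjusted p = 1.94e-06). The clone B libraries read 17.4, 16.5 and 14.6 CPM against 27.6, 28.0 and 26.5 CPM in regular medium. DBT, the E2 core gene (chromosome 1, positions 100186919 to 100249834), was lower in hypoxia in parental cells and in clone B. It read 22.1, 20 and 21 CPM in parental normoxia and 14.5, 14.6 and 13.2 CPM in parental hypoxia, and in clone B 21.9, 24.5 and 27.6 against 13.9, 14.5 and 13 CPM. The groups did not overlap in either genotype. The log2 difference was −0.58 ± 0.22 in parental cells (adjusted p = 0.0435), a call that no fit without 1 of the 6 libraries kept, and −0.84 ± 0.22 in clone B (adjusted p = 0.0152), lost without clone B normoxia replicate 3 or hypoxia replicate 3. In clone A it was −0.53 ± 0.22 (adjusted p = 0.0807). In TIFM, DBT read 11.3, 10.5 and 4.34 CPM in clone A against 15, 16.3 and 14.1 CPM in regular medium, a fall with a log2 difference of −0.78 ± 0.22 (adjusted p = 0.00333), and replicate 3 stood lowest. Without that replicate the log2 difference was −0.46 ± 0.17 (adjusted p = 0.0250). With only the libraries compared in the fit, the DBT fall in clone A was not called. Clone B spread from 8.87 to 17.6 CPM in TIFM, its groups overlapped, and its difference was −0.13 ± 0.22 (adjusted p = 0.642). In parental cells the log2 difference was −0.49 ± 0.22 (adjusted p = 0.0757).
The per-kilobase ratio of BCKDHB to DBT was 3.18 ± 0.17, 6.58 ± 0.12 and 6.98 ± 1.64 in parental cells, in the order normoxia, hypoxia and TIFM (SD, n = 3). It was 3.12 ± 0.15, 4.77 ± 0.31 and 7.48 ± 3.63 in clone A, and 2.78 ± 0.10, 5.51 ± 0.15 and 3.79 ± 0.94 in clone B.

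The kinase gene BCKDK (chromosome 16, positions 31106107 to 31112791) responded to hypoxia differently in clone A than in parental cells. In parental cells it read 35.7, 42.4 and 32.7 CPM in normoxia and 50.8, 53.8 and 60.3 CPM in hypoxia, with no overlap, a rise of 0.57 ± 0.17 (adjusted p = 0.0117). This call was lost without parental normoxia replicate 3 or without parental hypoxia replicate 3. Clone A gave −0.38 ± 0.17 (adjusted p = 0.110) and clone B −0.23 ± 0.17 (adjusted p = 0.439). The difference from the parental response was called in clone A at −0.95 ± 0.24 (adjusted p = 0.0141), and in clone B it was −0.80 ± 0.24 (adjusted p = 0.0520). TIFM against regular medium gave −0.39 ± 0.17 for BCKDK in parental cells (adjusted p = 0.0664), where the libraries overlapped. It gave −0.42 ± 0.17 in clone A (adjusted p = 0.0332), a call lost without clone A hypoxia replicate 1 or TIFM replicate 1. Without the latter the log2 difference was −0.21. The clone A call was also lost with only the libraries compared in the fit. In clone B the difference was −0.69 ± 0.17 (adjusted p = 0.00145). In TIFM, BCKDK was lower in clone B than in parental cells (log2 difference −0.90 ± 0.17, adjusted p = 0.000116), with libraries of 19.0, 23.1 and 25.3 CPM against 38.8, 52.1 and 35.1 CPM. In hypoxia in regular medium that difference was −0.60 ± 0.17 (adjusted p = 0.00666). The phosphatase gene PPM1K, the opposing enzyme, was higher in clone B than in parental cells in every condition, by 1.41 ± 0.18 in normoxia, 1.2 ± 0.18 in hypoxia and 1.80 ± 0.18 in TIFM (adjusted p = 9.67e-07, 6.9e-06 and 1.24e-08). The per-kilobase ratio of BCKDK to PPM1K was 23.1 ± 6.63, 35.0 ± 10.8 and 27 ± 7.96 in parental cells, in the order normoxia, hypoxia and TIFM. In clone B it was 9.79 ± 1.63, 9.80 ± 2.58 and 4.09 ± 0.76 (SD, n = 3), below all parental libraries of the same condition. In clone A it was 26.4 ± 2.49, 22.8 ± 0.91 and 13.6 ± 6.90, overlapping the parental libraries in normoxia and lying below them in hypoxia and TIFM.

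IVD, the isovaleryl-CoA dehydrogenase gene of the leucine branch (chromosome 15, positions 40405795 to 40435947), fell in hypoxia in all 3 genotypes. It read 76.5, 88.5 and 70.8 CPM in parental normoxia against 47.9, 48.8 and 51.1 CPM in hypoxia, 59.4, 57.7 and 56.8 against 32.1, 34.9 and 34.8 CPM in clone A, and 48.8, 51.9 and 42.8 against 33.7, 27.7 and 30.7 CPM in clone B. None of the 3 pairs of groups overlapped. The falls were −0.67 ± 0.14 (adjusted p = 0.000687), −0.77 ± 0.14 (adjusted p = 0.000483) and −0.64 ± 0.14 (adjusted p = 0.00557). IVD was also lower in clone B than in parental cells in all 3 conditions, with log2 differences of −0.72 ± 0.14 in normoxia, −0.68 ± 0.14 in hypoxia and −0.94 ± 0.14 in TIFM (adjusted p = 0.000296, 0.000406 and 7.35e-06). TIFM lowered it in clone B (log2 difference −0.62 ± 0.14, adjusted p = 0.000798), and in parental cells (log2 difference −0.36 ± 0.14, adjusted p = 0.0417), which held in 1 of 6 fits that left out a library. In clone A the TIFM difference was −0.25 ± 0.14 (adjusted p = 0.122), and the groups overlapped.

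MCCC1 (chromosome 3, positions 183015218 to 183116075) and MCCC2 (chromosome 5, positions 71587288 to 71658704), the biotin-bearing and the carboxyltransferase subunit genes of the carboxylase, fell in TIFM in all 3 genotypes. MCCC1 read 39.4, 39.5 and 38 CPM in parental hypoxia and 21.4, 18.1 and 23.4 CPM in TIFM, 48.7, 43.6 and 40.1 against 15.3, 15.7 and 12.5 CPM in clone A, and 37.8, 39.9 and 43.9 against 21.1, 14.6 and 14.7 CPM in clone B. No pair of groups overlapped. The falls were −0.89 ± 0.12 (adjusted p = 2.84e-06) in parental cells, −1.60 ± 0.13 (adjusted p = 4.69e-11) in clone A and −1.27 ± 0.13 (adjusted p = 6.93e-09) in clone B, and the fall in clone A was larger than in parental cells (log2 difference −0.71 ± 0.18, adjusted p = 0.00245). MCCC2 read 116, 118 and 120.0 CPM in parental hypoxia and 95.0, 88.7 and 89.3 CPM in TIFM. In clone A it read 101.5, 109.5 and 107 CPM against 70.1, 70.2 and 52.9 CPM, and in clone B 108, 110.1 and 108 CPM against 63, 61 and 51.6 CPM, with no overlap in any genotype. It fell (log2 difference −0.38 ± 0.10, adjusted p = 0.00333) in parental cells, −0.72 ± 0.10 (adjusted p = 6.2e-07) in clone A and −0.89 ± 0.10 (adjusted p = 5.03e-08) in clone B. The clone B fall exceeded the parental one (log2 difference −0.52 ± 0.14, adjusted p = 0.0182), a call lost without clone B TIFM replicate 3. In hypoxia, MCCC1 did not pass the test in any genotype, its log2 difference lying between −0.16 and −0.02, whereas MCCC2 fell in parental cells (log2 difference −0.36 ± 0.10, adjusted p = 0.00737, lost without parental normoxia replicate 2). MCCC2 also passed in clone A, at −0.28 ± 0.10 (adjusted p = 0.0445), and none of the 6 fits that left out a library kept that call.

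**Figure D3:**
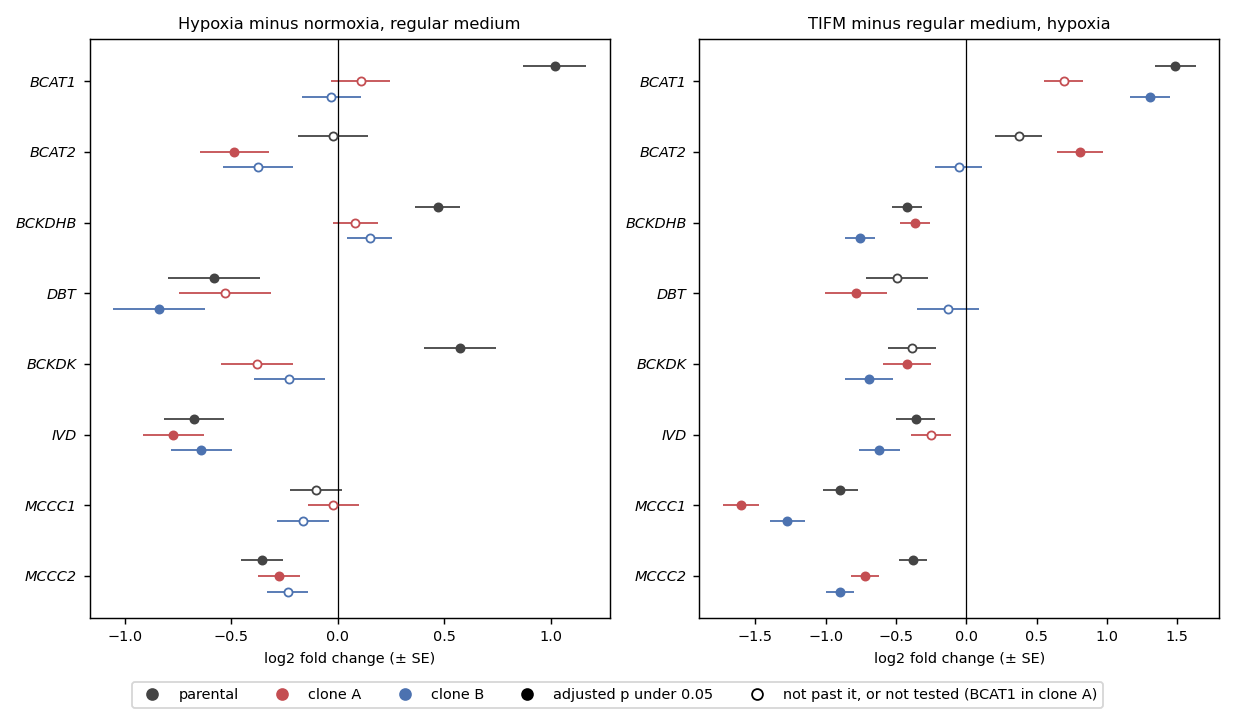
Log2 fold change of 8 genes in hypoxia against normoxia (left) and in TIFM against regular medium within hypoxia (right), with SE bars, by genotype; filled points passed an adjusted p of 0.05. IVD lies to the left of 0 in hypoxia in all 3 genotypes, and MCCC1 and MCCC2 do so in TIFM.

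Counted over the group, hypoxia gave 3 of 8 members higher and 3 lower in parental cells, where 15.4% of all tested genes were called higher and 14.9% lower. In clone A it gave 0 of 7 higher (10.4% of all genes) and 3 lower (11.8%), and in clone B 0 of 8 higher (4.46%) and 2 lower (4.84%). BCAT1 is not counted wherever clone A is involved. The median log2 difference of the 8 members was −0.06, −0.33 and −0.23 in the 3 genotypes, against values between −0.01 and 0.00 over all tested genes. TIFM gave 1 of 8 higher (21.8% of all genes) and 4 lower (20.4%) in parental cells, and 1 of 7 higher (33%) and 5 lower (34.2%) in clone A. In clone B it gave 1 of 8 higher (25.9%) and 5 lower (27.9%). The members had medians of −0.38, −0.39 and −0.65. A large share of all genes passed the test in TIFM, and nothing particular to the members is read from these counts. With only the libraries compared in the fit, the counts were 5 for hypoxia in clone A, 4 for hypoxia in clone B and 3 for TIFM in clone A, where BCKDHB, DBT and BCKDK lost their calls (adjusted p = 0.0984, 0.0514 and 0.113).

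Clone B against parental cells gave 2 of 8 members higher (13.2% of all tested genes) and 1 lower (13.3%) in normoxia. It gave 1 higher (16.9%) and 3 lower (19%) in hypoxia, and 1 higher (22.1%) and 5 lower (25.4%) in TIFM. Beyond BCAT1, IVD and BCKDK, BCKDHB was lower in hypoxia (log2 difference −0.28 ± 0.11, adjusted p = 0.0365, kept in 1 of 6 fits without a library) and in TIFM (−0.62 ± 0.11, adjusted p = 3.73e-05). In TIFM, MCCC2 was lower (log2 difference −0.64 ± 0.10, adjusted p = 9.79e-06) and MCCC1 (log2 difference −0.32 ± 0.13, adjusted p = 0.0390, kept in 2 of 6, and −0.49 without clone B TIFM replicate 1), although the MCCC1 libraries of the 2 groups overlapped. The clone A values against parental cells, given without a test, were 0.87, 0.41 and 0.85 for BCAT2, −0.44, −0.54 and −0.43 for IVD and 0.28, −0.67 and −0.71 for BCKDK in normoxia, hypoxia and TIFM.

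**Figure D4:**
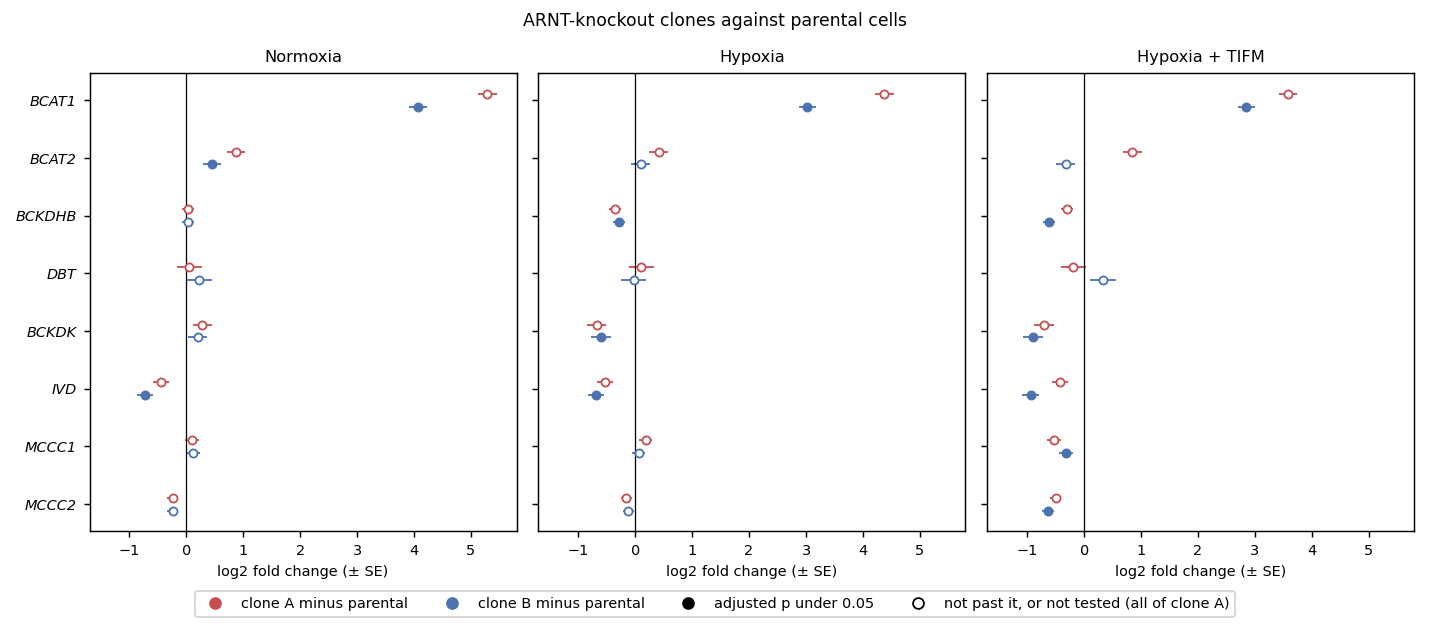
Log2 difference of each clone from parental cells for 8 genes in 3 conditions, with SE bars; filled points passed an adjusted p of 0.05, and clone A points carry no test. BCAT1 lies at 2.84 or higher in all 6 comparisons and every other gene lies below 1.

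Between the clones, edgeR called 0 of 7 members in normoxia (21.5% of all tested genes called) and 0 of 7 in hypoxia (25.1%). At an unadjusted p under 0.05, 1 member, BCAT2, stood out in normoxia and 0 in hypoxia, and DESeq2 called 0 in both. In TIFM 3 of 7 were lower in clone B (29.4% of all genes): BCAT2, IVD (log2 difference −0.51 ± 0.14, adjusted p = 0.00422) and BCKDHB (log2 difference −0.32 ± 0.11, adjusted p = 0.0145). The BCKDHB call was lost without clone B TIFM replicate 3, the IVD libraries of the clones overlapped, and with only the libraries compared in the fit neither was called (adjusted p = 0.273 and 0.137). Leaving out clone A TIFM replicate 1 raised the count to 5. For differences in response, 1 of 7 members differed in clone A for hypoxia (BCKDK, 6.23% of all genes called) and 1 of 7 for TIFM (MCCC1, 38.9%). In clone B it was 1 of 8 for hypoxia (BCAT1, 4.73%) and 1 of 8 for TIFM (MCCC2, 10.4%).

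The other 24 listed genes of the pathway were taken as partners, later steps and transporters, and 23 had enough reads to be tested (ALDH6A1 did not). In hypoxia, 3 of the 23 were higher and 3 lower in parental cells (15.4% and 14.9% of all tested genes), 2 and 3 in clone A (10.4% and 11.8%), and 1 and 1 in clone B (4.46% and 4.84%). Nothing particular to the list is read from these counts. HIBCH, a valine branch hydrolase, fell in all 3, with log2 differences of −0.57 ± 0.13, −0.52 ± 0.13 and −0.51 ± 0.13 (adjusted p = 0.00145, 0.00516 and 0.0131). The clone B call was lost without clone B normoxia replicate 3 or hypoxia replicate 3. ACADSB, the short branched-chain acyl-CoA dehydrogenase of isoleucine breakdown, rose in parental cells by 0.98 ± 0.20 (adjusted p = 0.000452). AUH, which hydrates the product of the MCCC carboxylase, rose there by 0.82 ± 0.20 (adjusted p = 0.0034).

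In TIFM, 4 of the 23 were higher and 5 lower in parental cells (21.8% and 20.4% of all tested genes), 11 and 7 in clone A (33% and 34.2%), and 9 and 8 in clone B (25.9% and 27.9%). Nothing particular to the list is read from these counts either. SLC3A2 and SLC7A5, the heavy and light chain of the LAT1 amino acid exchanger, rose in all 3 genotypes. SLC3A2 rose by 1.25 ± 0.15, 3.11 ± 0.16 and 1.70 ± 0.15 (adjusted p = 4.07e-07, 2.08e-14 and 1.49e-09), its mean going from 125 to 297 CPM in parental cells and from 99.7 to 862 CPM in clone A. SLC7A5 rose by 0.52 ± 0.15 in parental cells (adjusted p = 0.00794, lost without parental TIFM replicate 2), by 0.74 ± 0.15 in clone B (adjusted p = 0.000255) and by 1.71 ± 0.16 in clone A (adjusted p = 6.98e-10). Of the 6 transporters, 2 were higher and 2 lower in parental cells, 5 and 0 in clone A, and 4 and 1 in clone B. SLC7A8 fell in parental cells (log2 difference −1.36 ± 0.43, adjusted p = 0.0134, lost without parental TIFM replicate 1). It also fell in clone B (−1.35 ± 0.48, adjusted p = 0.0211). That call was lost without clone B hypoxia replicate 3 or TIFM replicate 2, and with only the libraries compared. BTD, which recycles the biotin that MCCC1 carries, fell, with log2 differences of −0.70 ± 0.15, −1.87 ± 0.16 and −0.81 ± 0.15 (adjusted p = 0.000563, 1.76e-10 and 8.14e-05). AUH, the step after the carboxylase, rose in parental cells by 1.15 ± 0.20 (adjusted p = 6.25e-05) and in clone B by 1.09 ± 0.20 (adjusted p = 7.27e-05), and in clone A its log2 difference was 0.07 ± 0.20 (adjusted p = 0.778). ACADSB fell in clone A (log2 difference −1.88 ± 0.21, adjusted p = 1.25e-08) and in clone B (log2 difference −1.10 ± 0.20, adjusted p = 4.51e-05). MCEE, a methylmalonyl-CoA epimerase, rose in clone B by 1.60 ± 0.23 (adjusted p = 2.23e-06).

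**Figure D5:**
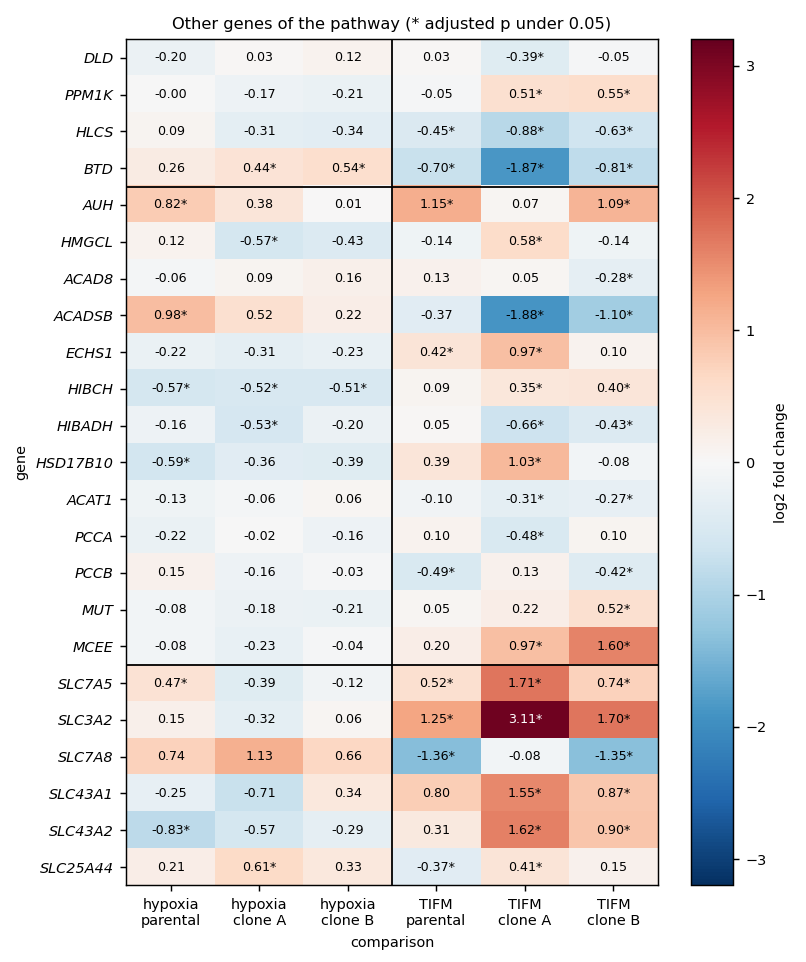
Log2 fold change of 23 other genes of branched-chain amino acid breakdown and transport in hypoxia and in TIFM, by genotype; asterisks mark an adjusted p under 0.05, and lines separate partners and cofactor supply, later steps and transporters. SLC3A2 in clone A is the darkest cell at 3.11.

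Across the 9 group means, the genes whose log2 CPM followed BCAT1 most closely, among genes with a standard deviation of 1 or more, were THRB (Pearson r = 0.973), CAMK2N1 (0.961), RNF157 (0.957), PARM1 (0.934) and DOCK3 (0.927). These are descriptions over 9 groups that share genotypes and conditions. Among the members, BCAT2 gave 0.640 and the others were negative, from −0.66 for IVD to −0.26 for DBT.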

How the data were processed

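Polyadenylated RNA was sequenced from 27 libraries. The authors deposited 1 table of raw, unnormalised read counts. Per the submitters' processing notes, reads were aligned with HISAT2 to GRCh38 and counted with featureCounts; no version, annotation or strand setting is given in the sources used here. Members and lists were chosen with earlier results of these data known. Symbols, positions and exon lengths came from GENCODE release 29.

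All libraries entered 1 edgeR 4.0.16 quasi-likelihood fit (R 4.3.3) with TMM scaling, filterByExpr (minimum count 10, minimum total 15), 1 coefficient per group and Benjamini-Hochberg adjustment over 13943 genes, called at 0.05. The SE is the log2 change over the square root of F. The script was tested on simulated data. Comparisons used by the choice of members (clone A against parental cells; BCAT1 wherever clone A enters) have no test. Of other pathway genes, those called with the largest log2 change were named, at most 3 per direction. Alternatives were RLE scaling, no filter, a replicate block, DESeq2 1.42.0, only the libraries compared, and each library left out. Same-numbered libraries were checked for pairing. BCKDHA could not be tested.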

Additional observations from a re-analysis of the deposited data

Results flagged for a closer look

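In 4 cases the test of the difference itself called a clone response that differed from the parental one. For hypoxia this was 1 of 7 members in clone A (6.23% of all tested genes called) and 1 of 8 in clone B (4.73%). For TIFM it was 1 of 7 in clone A (38.9%) and 1 of 8 in clone B (10.4%). Nothing particular to the members is read from these counts. For BCKDK, the hypoxia response of clone A lay below the parental one by −0.95 on the log2 scale. For BCAT1, the hypoxia response of clone B lay below the parental one by −1.05. Its parental libraries also enter the clone A differences for which BCAT1 was chosen. For MCCC1, the TIFM response of clone A lay below the parental one by −0.71. For MCCC2, the TIFM response of clone B lay below the parental one by −0.52. The BCKDK and BCAT1 differences share parental libraries, as do the MCCC1 and MCCC2 differences. The MCCC2 call was lost without clone B TIFM replicate 3.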

How the results depend on the processing

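Every member value, and every pathway value named by the rule, was recomputed under each alternative. The TIFM values of SLC7A5 in clone B and AUH in clone A, named after their values were seen, were not, nor were ARNT, the ratios and the likeness to BCAT1. Of 1614 values with 1 library left out, 126 lost their call and 17 gained one. Of the results followed, 18 changed sign under at least 1 alternative. None of them had been called and each lay within 1 SE of 0. With RLE size factors and with DESeq2, MCCC1 for hypoxia in clone A became 0.0025 and 0.0024, MCCC2 for clone B against clone A in normoxia 0.0208 and 0.0208, BCKDK for the TIFM response of clone A 0.0063 and 0.0070, and BCKDHB for clone A against parental cells in normoxia −0.0056 and −0.0053. With only the libraries compared, MCCC1, MCCC2 and BCKDHB in those comparisons became 0.0085, 0.0321 and −0.0095.

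Leaving out 1 library at a time, BCAT2 ran from −0.11 to 0.020 for TIFM in clone B and from −0.10 to 0.046 for hypoxia in parental cells. BCKDHB ran from −0.043 to 0.17 for the TIFM response of clone A, −0.021 to 0.067 for clone A against parental cells in normoxia, −0.048 to 0.072 for clone B against clone A in normoxia and −0.022 to 0.10 for clone B against parental cells in normoxia. BCKDK ran from −0.19 to 0.18 for the TIFM response of clone A and −0.036 to 0.18 between the clones in hypoxia. DBT ran from −0.53 to 0.029 for the TIFM response of clone A, −0.43 to 0.067 for TIFM in clone B, −0.42 to 0.11 for clone A against parental cells in TIFM, −0.075 to 0.013 for clone B against parental cells in hypoxia and −0.0063 to 0.10 for the hypoxia response of clone A. IVD ran from −0.031 to 0.24 for the TIFM response of clone A and −0.061 to 0.10 for the hypoxia response of clone B. MCCC1 ran from −0.0042 to 0.11 for clone B against parental cells in hypoxia and −0.098 to 0.042 for hypoxia in clone A, and MCCC2 from −0.028 to 0.024 between the clones in normoxia.

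The number of members called, leaving out 1 library, ranged from 1 to 2 for hypoxia in clone A (1 without any of 5 of its 6 libraries) and from 1 to 2 for hypoxia in clone B (1 without clone B normoxia replicate 3 or hypoxia replicate 3). It ranged from 3 to 5 between the clones in TIFM, from 1 to 2 for the hypoxia response of clone B (2 without parental normoxia replicate 2 or clone B hypoxia replicate 1), and from 1 to 3 for the TIFM response of clone A (3 without clone A TIFM replicate 1, and 2 without clone A or parental TIFM replicate 2). It ranged from 0 to 2 for the TIFM response of clone B (0 without clone B TIFM replicate 3, 2 without its replicate 1).

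In no comparison did same-numbered libraries correlate above 0.1 for all 3 numbers, but some numbers did. The largest values, 0.37 and 0.45, were for replicates 1 and 3 of clone B against clone A in TIFM, with 0.07 for replicate 2. Clone A against parental cells in TIFM gave 0.23, 0.19 and −0.04. The check therefore does not settle whether the libraries were paired. With a replicate block, the calls were 1 between the clones in normoxia and 2 for the TIFM response of clone A. DESeq2 called 2 for the TIFM response of clone A and 2 for the hypoxia response of clone B, and no low-count filter also gave 2 for the latter. With only the libraries compared, the calls were 5 and 4 for hypoxia in clones A and B, 3 for TIFM in clone A, 3 between the clones in normoxia and 1 in TIFM, and 3 and 2 for the hypoxia responses of clones A and B. The cause of these shifts was not tested.

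Over all genes, calls moved by more than 1.5 times only with that last alternative: from 4212 to 6804, 3097 to 4860 and 1297 to 4242 for hypoxia in parental cells, clone A and clone B, from 3697 to 5710 for clone B against parental cells in normoxia, from 3002 to 6834 and 7825 to 3802 between the clones in normoxia and TIFM, from 869 to 2656 and 660 to 2614 for the hypoxia responses of clones A and B, and from 5426 to 3539 for the TIFM response of clone A. In the same fit, 47.9% and 46.9% of the genes called for the hypoxia responses of clones A and B were higher, against 35.2% and 31.5%.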
